A study of Mus musculus with 32 samples.

Results

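Nuclear receptors are transcription factors that bind DNA through paired zinc fingers, and most of them change their activity when a small lipid-soluble ligand (a steroid, thyroid hormone, retinoid, oxysterol or bile acid) enters the pocket of their other main domain. In liver they set the transcription of genes of bile acid, cholesterol, glucose and drug metabolism, many of them as heterodimers with the retinoid X receptors. Orphan members, such as the NR4A group, have no settled physiological ligand and act largely according to how much of the protein is made. The genes described here are a list of 34 nuclear receptors, picked by family name, which leaves aside family members treated with the circadian clock, bile acid feedback, glucocorticoids, Ppara or Hnf4a. Of these 34 genes, 33 were measured among the 22180 genes of the array with a single-symbol probe set, and Nr1h2 is not analysed here.

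Values come from liver RNA of wild-type male C57BL/6NTac mice aged 14 weeks, with 1 Affymetrix Mouse Gene 2.1 ST array for each of 32 animals. All mice had fasted for 10 h and were then gavaged either with palm oil, a largely saturated plant fat (2 g/kg body mass), or with water as the control. The groups were 9 palm oil clamped, 9 palm oil basal, 7 control clamped and 7 control basal mice. Clamped mice carried a jugular vein catheter placed days earlier under ketamine and xylazine, and 6 h after the gavage a primed tracer infusion of 110 min preceded insulin at 15 pmol/kg/min, with glucose held steady by a variable glucose infusion. Their liver was taken after ketamine and xylazine, whereas basal livers were taken under isoflurane 6 h after the gavage. Insulin, the time after the gavage, the catheter, the tracer and the anaesthetic therefore cannot be told apart in any difference between clamped and basal mice. Clamped animals were numbered 15 to 32 and basal animals 33 to 52, so that animal number cannot be told apart from the state either. The deposited values are on a log2 scale, so that a difference of 1 is 2-fold, and values near the bottom of the scale are compressed. Differences are given ± the standard error from one limma fit over all arrays, with p-values adjusted over all genes and a threshold of 0.05.

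Array medians lay between 1.65 and 1.77 log2 units. Liver identity was checked with 9 hepatocyte markers (among them Alb, Apoa1 and Cps1), whose mean per array lay between 9.56 and 9.72 in palm oil clamped, 9.22 and 9.67 in palm oil basal, 9.42 and 9.76 in control clamped and 9.18 and 9.79 in control basal livers. Of these 9 markers 2 rose in palm oil mice (Fgb and Hnf4a) and 3 in control mice (also Serpina1a), and 0 fell. Of the basal arrays, 7 came from animals numbered 44 or higher (3 palm oil and 4 control) and had narrower interquartile ranges (2.44 to 2.54) than the other basal arrays (2.72 to 2.96). Transcripts of pancreatic acinar cells averaged over 6 log2 units in 12 arrays, namely 2 palm oil clamped, 5 palm oil basal, 1 control clamped and 4 control basal. Of the 9 measured acinar markers 0 were called, with median clamped minus basal differences of -2.95 in palm oil mice and -3.41 in control mice. The part of either feature in the differences was not tested, but the main results are also given without those arrays. Of 9 Kupffer cell markers 4 rose in each treatment (Marco, Timd4 and C1qb among them), of 5 bile duct markers Sox9 rose in both, and of 8 lymphocyte markers 1 fell in palm oil mice and 0 were called in control mice. In RNA of whole tissue, fewer cells of a type and less RNA per cell cannot be told apart.

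Between the clamped and the basal state 9 of the 33 receptors changed in at least one treatment, and 6 of them in both. Nr4a1, an orphan receptor and immediate early gene, rose 4.14-fold in palm oil mice and 3.62-fold in control mice. Nr1i3 (CAR, the constitutive androstane receptor of drug metabolism), Nr2f2 (COUP-TFII), Nr3c2 (the mineralocorticoid receptor), Thra and Rarb fell in both. Pparg and Rxrg were called lower in palm oil mice alone and Thrb higher in control mice alone, yet 0 receptors passed the test of a difference in response between the treatments. No receptor was called between palm oil and control mice in either state. In palm oil mice 8 members were called, 1 higher and 7 lower, which is 24.2% of the 33, against 7.57% of all genes (3.76% higher and 3.8% lower). In control mice 7 were called, 2 higher and 5 lower, or 21.2%, against 8.75% of all genes (4.66% higher and 4.09% lower). Brightness matters for that reading, because 26 of the 33 receptors lie in the brighter part of the genes. Within that part alone 9 of 26 receptors were called in palm oil mice, against 1957 of 11090 genes (17.6%). In control mice 8 of 26 were called, against 2307 of 11090 genes (20.8%). The 6 shared receptors make up 75% of the calls in palm oil mice and 85.7% of those in control mice. The matching shares over all genes were not computed, so these percentages do not set the receptors apart from other genes. The median difference over all 33 was -0.15 in palm oil mice (all genes -0.02) and -0.07 in control mice (all genes -0.02).

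**Figure D1:**
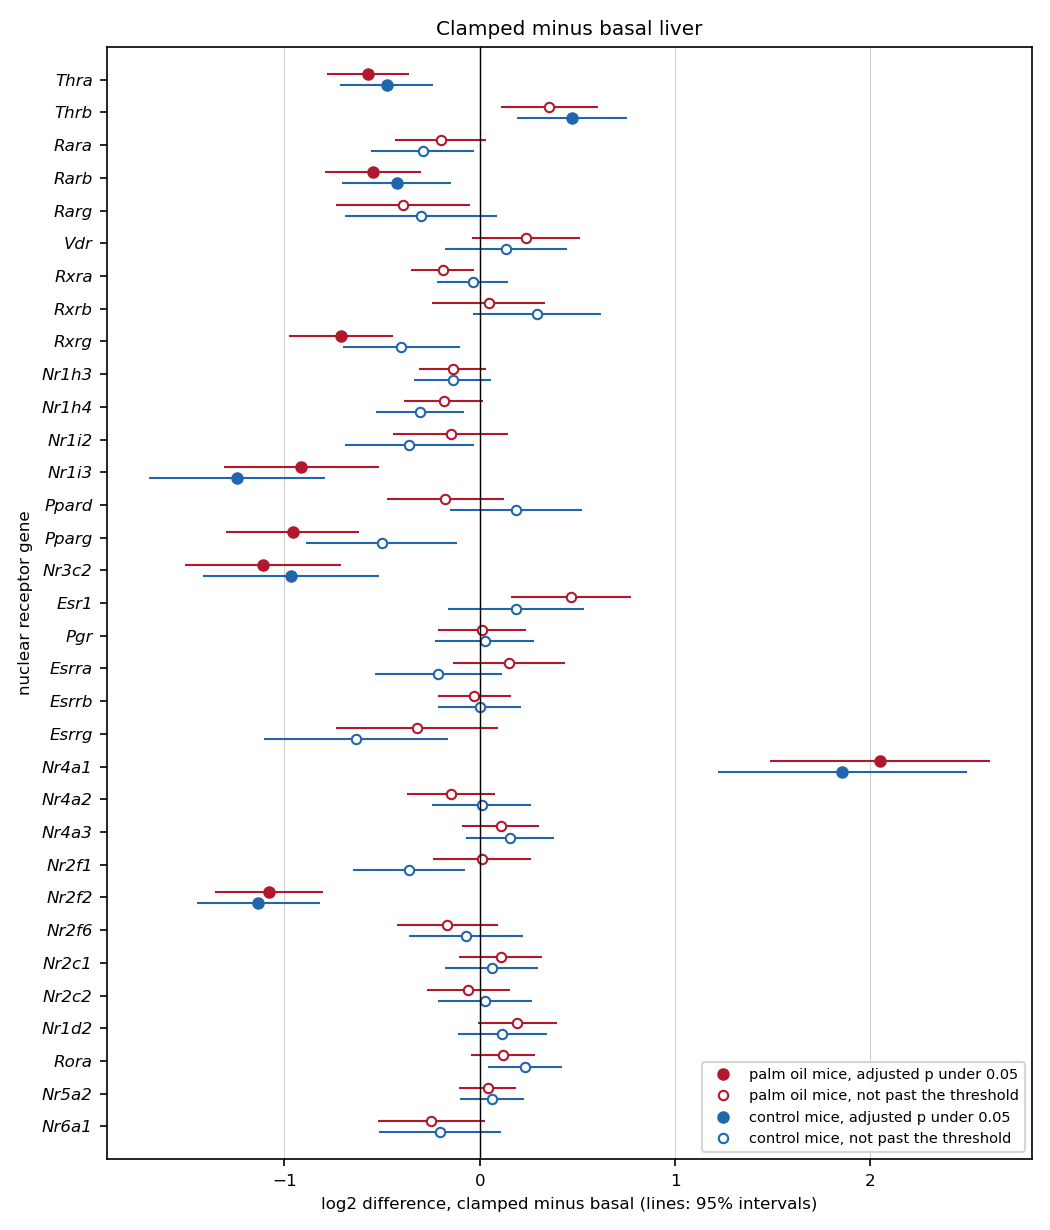
Difference between clamped and basal liver (log2 units, x axis) for the 33 receptors (y axis, ordered by role), in palm oil mice (red, 9 clamped and 9 basal) and control mice (blue, 7 and 7), with 95% intervals as lines and filled points for an adjusted p under 0.05. Nr4a1 stands to the right at 2.05 and 1.86, and Nr1i3, Nr2f2 and Nr3c2 stand to the left in both treatments.

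The start-site sequences of the NR4A genes are shown because this group holds the receptor with the largest change next to 2 close relatives that were not called, and that of Nr2f2 because it had the smallest p-value of the receptors that fell. Each line holds the 250 bases before a transcription start in RefSeq (GRCm38.p6), read 5′ to 3′ on the gene's strand, and capitals mark TGACG or its reverse complement CGTCA, the core of the cAMP response element that CREB binds. The windows are chr15:101266596-101266845 on the plus strand for Nr4a1, chr2:57124004-57124253 on the minus strand for Nr4a2, chr4:48045055-48045304 on the plus strand for Nr4a3 and chr7:70366747-70366996 on the minus strand for Nr2f2.
Nr4a1: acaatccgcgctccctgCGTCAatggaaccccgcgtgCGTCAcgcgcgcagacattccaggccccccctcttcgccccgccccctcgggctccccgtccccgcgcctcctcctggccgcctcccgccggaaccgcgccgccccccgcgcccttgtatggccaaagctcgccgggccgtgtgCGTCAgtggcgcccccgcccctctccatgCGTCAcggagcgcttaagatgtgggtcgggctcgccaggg
Nr4a2: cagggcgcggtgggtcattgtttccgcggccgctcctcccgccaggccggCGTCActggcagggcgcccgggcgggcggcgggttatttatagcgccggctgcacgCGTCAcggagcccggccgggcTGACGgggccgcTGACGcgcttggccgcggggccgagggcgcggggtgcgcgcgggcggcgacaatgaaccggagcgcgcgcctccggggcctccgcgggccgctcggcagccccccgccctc
Nr4a3: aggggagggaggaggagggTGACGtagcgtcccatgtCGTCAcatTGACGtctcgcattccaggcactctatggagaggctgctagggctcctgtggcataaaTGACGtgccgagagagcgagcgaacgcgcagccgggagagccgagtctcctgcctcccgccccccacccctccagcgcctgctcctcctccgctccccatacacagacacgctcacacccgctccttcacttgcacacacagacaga
Nr2f2: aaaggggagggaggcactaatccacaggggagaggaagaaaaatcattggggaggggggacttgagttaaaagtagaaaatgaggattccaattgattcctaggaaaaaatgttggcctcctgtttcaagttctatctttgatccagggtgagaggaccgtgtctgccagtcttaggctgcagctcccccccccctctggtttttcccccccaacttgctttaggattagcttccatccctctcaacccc
Each of the 3 NR4A windows held 4 copies of this core, counted on both strands, and the Nr2f2 window held 0. Of all 32851 such RefSeq windows, 17.8% held at least 1 copy and 45 windows (0.137%) held 4 or more. Windows were available for 33 of the 34 listed receptors, with Nr1h2 included and Thra left without one. Of their 52 windows, 10 held the core and 0 held the full palindrome TGACGTCA (1.55% of all windows). AGGTCA, the repeat unit that many nuclear receptors bind, stood in 10 of the 52 (14.0% of all windows). The windows of Nr1i3 and Nr3c2 held none of these motifs. A match describes the letters of the window and shows no binding.

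Among the NR4A orphan receptors, which many stimuli induce rapidly, Nr4a1 alone was called. Its lowest, median and highest values were 3.38, 4.23 and 5.5 in palm oil clamped livers, against 1.51, 2.23 and 2.64 in palm oil basal livers. All 9 palm oil clamped livers lay above every palm oil basal liver, and the difference was 2.05 ± 0.28 (adjusted p = 2.99e-06). In control mice the values were 2.2, 4.29 and 5.29 in clamped livers, against 1.87, 2.18 and 2.58 in basal livers, a difference of 1.86 ± 0.31 (adjusted p = 0.000103). Here 6 of 7 clamped livers lay above all basal livers, and control clamped replicate 6, at 2.2, lay within the basal range. With an exact rank sum test in place of limma the call in control mice was lost (adjusted p = 0.0661), while that in palm oil mice held. Without the 12 arrays high in acinar transcripts the difference was 1.93 in palm oil mice and 2.09 in control mice, and without the 7 basal livers numbered 44 or higher it was 1.99 and 1.65, each still past the threshold.

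Nr4a2 and Nr4a3, the close relatives of Nr4a1, stayed near the bottom of the scale in every group. Nr4a2 averaged 1.46 ± 0.19 in palm oil clamped, 1.61 ± 0.24 in palm oil basal, 1.46 ± 0.26 in control clamped and 1.45 ± 0.23 in control basal livers (SD, n = 9, 9, 7 and 7). For Nr4a3 the means were 1.48 ± 0.21, 1.38 ± 0.22, 1.46 ± 0.22 and 1.3 ± 0.08 in the same groups. Their differences had 95% intervals of -0.37 to 0.08 and -0.09 to 0.31 in palm oil mice, and of -0.25 to 0.26 and -0.07 to 0.38 in control mice, on a part of the scale where signal is compressed.

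Nr4a1 belongs to the immediate early genes, transcripts that need no new protein synthesis to be induced, and a list of 20 other measured genes of this kind moved alongside it. In palm oil mice 16 of the 20 rose and 0 fell, with a median difference of 1.25, and in control mice 16 rose and 1 fell, with a median of 1.4. The zinc finger factor Egr1 differed by 4.5 ± 0.36 in palm oil mice and 4.38 ± 0.41 in control mice. Btg2, an antiproliferative gene, differed by 3.32 ± 0.27 and 3.46 ± 0.31, and Jun, a component of AP-1, by 2.32 ± 0.27 and 2.95 ± 0.3, in palm oil and control mice in that order. Of 11 genes listed as cAMP and CREB targets, a list that contains Nr4a1, 4 rose and 2 fell in each treatment. The named members were Nr4a1 itself, Crem (a CREB-family factor with its own cAMP-induced isoform; 0.68 ± 0.15 and 0.81 ± 0.17) and G6pc (glucose-6-phosphatase, the last step of glucose output; -1.81 ± 0.47 and -2.44 ± 0.54). In mouse liver the NR4A receptors are known as inducers of gluconeogenic genes. Of the 6 genes listed as their targets 0 rose in either treatment, G6pc fell in both, and Cpt1a, the carnitine transferase of mitochondrial fatty acid import, fell in control mice (-0.25 ± 0.09, adjusted p = 0.103, in palm oil mice; -0.34 ± 0.11, adjusted p = 0.0375, in control mice).

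Transcripts of neutrophils also rose with the clamp. Of 9 neutrophil markers 6 rose in each treatment, led by S100a9, S100a8 and Retnlg, while Ly6g, Camp and Ltf were not called. The mean of the list per array lay between 2.99 and 3.68 in palm oil clamped, 1.74 and 2.2 in palm oil basal, 2.73 and 3.73 in control clamped and 1.76 and 2.46 in control basal livers. Clamped and basal ranges of that mean do not overlap. Their part in the Nr4a1 values was not tested.

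**Figure D2:**
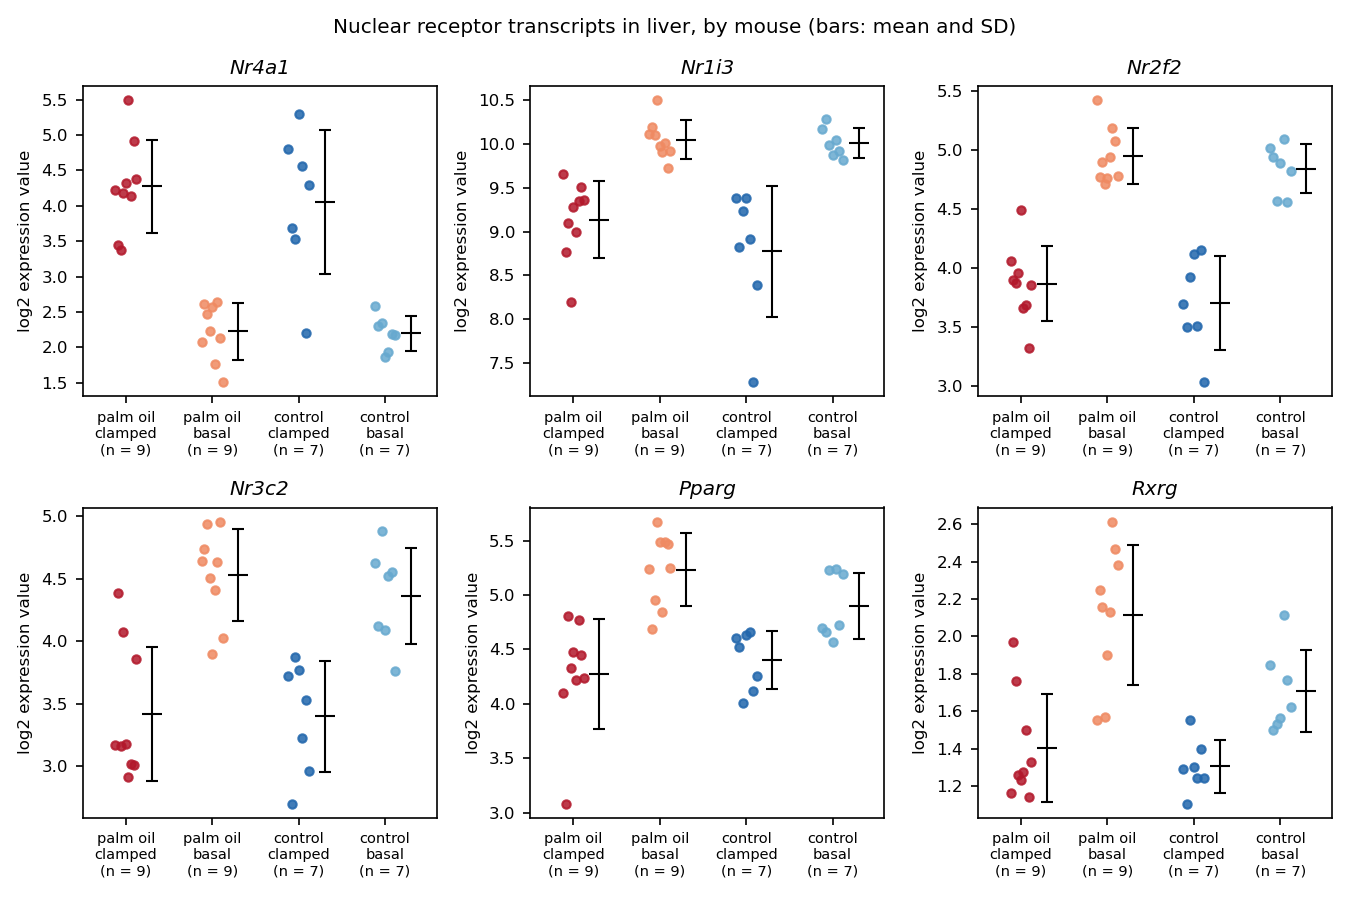
Log2 expression values (y axis) of 6 receptors in each liver (points), by group (x axis: 9 palm oil clamped, 9 palm oil basal, 7 control clamped and 7 control basal mice), with the mean and SD beside each group. Nr1i3 and Nr2f2 show no overlap between clamped and basal livers in either treatment, and 1 control clamped liver lies within the basal range for Nr4a1.

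Among the receptors that sense foreign compounds and metabolites, Nr1i3 changed and its relatives were not called. CAR, its product, resides in the cytoplasm of hepatocytes until drugs such as phenobarbital send it to the nucleus. Nr1i3 had lowest, median and highest values of 8.2, 9.28 and 9.65 in palm oil clamped livers, against 9.72, 10.02 and 10.5 in palm oil basal livers. The groups did not overlap, and the difference was -0.91 ± 0.20 (1.88-fold lower, adjusted p = 0.00186). In control mice the values were 7.28, 8.92 and 9.38 in clamped livers, against 9.82, 9.98 and 10.29 in basal livers, again without overlap (-1.24 ± 0.22, 2.36-fold lower, adjusted p = 0.000212). Non-overlap was found for 4 receptors in palm oil mice (Nr4a1, Nr1i3, Nr2f2 and Thra), against 1.45% of all genes, and for 2 in control mice (Nr1i3 and Nr2f2), against 2.55%. By direction these were 1 higher (0.866% of all genes) and 3 lower (0.586%) in palm oil mice, and 0 higher (1.39%) and 2 lower (1.16%) in control mice. The lowest clamped value, 7.28, came from control clamped replicate 6, the same liver that was lowest for Nr4a1. Left out one at a time, no array took the difference beyond the range of -0.98 to -0.80 in palm oil mice or -1.34 to -0.99 in control mice. The differences were -1.15 and -1.27 without the 12 arrays high in acinar transcripts, and -0.996 and -1.37 without the basal animals numbered 44 or higher, in palm oil and control mice, and all were called.

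Nr1i2 (PXR, the pregnane X receptor), the closest relative of CAR, differed by -0.15 ± 0.14 in palm oil mice and -0.36 ± 0.16 in control mice, with adjusted p-values of 0.666 and 0.19. It too was lowest, at 5.74, in control clamped replicate 6. Of 17 measured genes that CAR and PXR regulate, 3 rose and 3 fell in palm oil mice and 3 rose and 4 fell in control mice, with medians of -0.12 and -0.27. Gadd45b, a stress gene that CAR induces in mouse liver, differed by 1.87 ± 0.25 in palm oil mice and 2.24 ± 0.28 in control mice. The P450 gene Cyp3a13 differed by 1.05 ± 0.14 and 1.07 ± 0.16, and the efflux transporter Abcc3 by -0.48 ± 0.11 and -0.67 ± 0.12, in the same order. Cyp2b10, the classic CAR-induced P450 gene, and Cyp2b9 of the same subfamily were chosen after their values had been seen. Cyp2b10 was higher (1.46 ± 0.36 and 1.73 ± 0.40) and Cyp2b9 lower (-2.69 ± 0.50 and -2.54 ± 0.57), all past the threshold. Cyp3a11, the main PXR-inducible P450, differed by 0.05 ± 0.10 and 0.02 ± 0.11 and was not called.

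Nr1h4 encodes FXR, the bile acid receptor that restrains bile acid synthesis. Its values were 7.83, 7.94 and 8.07 (lowest, median and highest) in palm oil clamped, 7.78, 8.16 and 8.57 in palm oil basal, 7.53, 7.72 and 8.1 in control clamped and 7.82, 8.14 and 8.36 in control basal livers. Clamped and basal livers overlapped in both treatments, and the differences of -0.19 ± 0.10 (adjusted p = 0.325) and -0.31 ± 0.11 (adjusted p = 0.0862) were not past the threshold. This depended on the arrays taken. Basal animals numbered 44 or higher had a median of 7.87 and the other basal animals 8.25, and without the arrays of animals numbered 44 or higher Nr1h4 differed by -0.31 in palm oil mice (adjusted p = 0.0446) and by -0.49 in control mice (adjusted p = 0.0167). Leaving out control clamped replicate 5 alone also brought control mice past the threshold (-0.36, adjusted p = 0.0466). Without the 12 arrays high in acinar transcripts the differences were -0.35 in palm oil mice (adjusted p = 0.14) and -0.17 in control mice (adjusted p = 0.571).

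Of 13 measured FXR-regulated genes 2 rose and 2 fell in palm oil mice, and 2 rose and 5 fell in control mice. Fetub, a liver-secreted protein, rose by 0.35 ± 0.07 and 0.43 ± 0.08 in palm oil and control mice, and Apoa5, an activator of triglyceride clearance, differed by -0.37 ± 0.09 and -0.44 ± 0.10. Cyp8b1, the sterol hydroxylase that sets the make-up of bile acids and that FXR represses, differed by -1.02 ± 0.29 and -1.53 ± 0.33. Nr1h3 (LXRα, an oxysterol sensor) differed by -0.14 in both treatments without passing the threshold (adjusted p = 0.418 and 0.453). Of 12 LXR-regulated genes, a list that includes Nr1h3, 2 rose and 3 fell in palm oil mice, and 1 rose and 4 fell in control mice. Srebf1, the master factor of fatty acid synthesis genes, differed by -0.66 ± 0.14 and -0.82 ± 0.15. The sterol exporters Abcg5 (-0.41 ± 0.15, adjusted p = 0.113, and -0.82 ± 0.17, adjusted p = 0.0017) and Abcg8 (-0.61 ± 0.16 and -0.83 ± 0.18) were the other named genes.

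Nr2f2, which encodes COUP-TFII, an orphan receptor of veins and mesenchyme that is also made in hepatocytes, had the smallest p-value of all members in both treatments. Its values were 3.33, 3.87 and 4.49 in palm oil clamped livers, against 4.71, 4.9 and 5.42 in palm oil basal livers (-1.08 ± 0.14, 2.11-fold lower, adjusted p = 1.05e-06). Control clamped livers had 3.04, 3.69 and 4.16, against 4.56, 4.89 and 5.09 in control basal livers (-1.14 ± 0.16, 2.20-fold lower, adjusted p = 4.46e-06). No clamped liver reached the lowest basal liver of its treatment. Without the 12 arrays high in acinar transcripts the differences were -1.05 and -1.18 in palm oil and control mice, and without the basal animals numbered 44 or higher they were -1.05 and -1.14, all past the threshold.

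Since COUP-TFII marks vessels and stroma, lists of those cells are given beside it. Of 11 endothelial markers 1 rose and 1 fell in each treatment, namely Lyve1 (1.29 ± 0.14 in palm oil and 1.35 ± 0.16 in control mice), a hyaluronan receptor of the sinusoid, and Kdr (-0.78 ± 0.18 and -1.09 ± 0.20), a VEGF receptor. Their list mean per array lay between 5.72 and 6.06 in palm oil clamped, 5.69 and 5.97 in palm oil basal, 5.49 and 6.06 in control clamped and 5.67 and 5.98 in control basal livers, so that these ranges overlap. Of 10 stellate cell markers 1 rose and 1 fell in palm oil mice and 0 were called in control mice, and the ranges of the list mean, 3.41 to 3.71, 3.41 to 3.76, 3.27 to 3.65 and 3.34 to 3.72 in the same 4 groups, overlap as well. Nr2f1 (COUP-TFI) and Nr2f6 (EAR2), the relatives of Nr2f2, were not called. Nr2f1 differed by 0.01 ± 0.12 in palm oil mice and -0.36 ± 0.14 in control mice, and Nr2f6 by -0.17 ± 0.13 and -0.07 ± 0.14.

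Nr3c2, the receptor for aldosterone that also binds glucocorticoids, had values of 2.92, 3.17 and 4.38 in palm oil clamped livers, against 3.9, 4.63 and 4.96 in palm oil basal livers. In control mice the values were 2.7, 3.53 and 3.87 in clamped livers, against 3.76, 4.52 and 4.88 in basal livers. The groups overlapped, with 7 of 9 palm oil clamped and 5 of 7 control clamped livers below every basal liver of their treatment. Nr3c2 fell by 1.11 ± 0.20 in palm oil mice (adjusted p = 0.000176) and by 0.97 ± 0.22 in control mice (adjusted p = 0.00368). A second Nr3c2 probe set lay at 1.20 in palm oil clamped, 1.13 in palm oil basal, 1.19 in control clamped and 1.23 in control basal livers, near the bottom of the scale, and differed by 0.07 and -0.04 in palm oil and control mice. With the mean of both probe sets Nr3c2 differed by -0.52 and -0.50, still past the threshold (adjusted p = 0.00271 and 0.0106). For the sex steroid receptors, Esr1 (estrogen receptor α) differed by 0.47 ± 0.15 in palm oil mice (adjusted p = 0.0536) and 0.19 ± 0.17 in control mice (adjusted p = 0.607), and Pgr (progesterone receptor) by 0.01 in palm oil and 0.03 in control mice at the bottom of the scale. In palm oil mice Esr1 passed the threshold without any one of palm oil clamped replicates 1, 5 and 9, palm oil basal replicates 2 and 3, control clamped replicates 1 and 6 and control basal replicate 6, with differences of 0.47 to 0.54. Basal animals numbered 44 or higher had a median Esr1 value of 4.24 and the other basal animals 4.73. The difference in palm oil mice was 0.27 (adjusted p = 0.42) without animals numbered 44 or higher and 0.22 (adjusted p = 0.667) without the arrays high in acinar transcripts.

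The pair of thyroid hormone receptor genes moved in opposite directions. Thra, the form that predominates in heart and brain, averaged 2.87 ± 0.16 in palm oil clamped and 3.44 ± 0.23 in palm oil basal livers (SD, n = 9 each), and 2.94 ± 0.12 in control clamped and 3.42 ± 0.29 in control basal livers (SD, n = 7 each). It fell by 0.57 ± 0.10 in palm oil mice, where the groups did not overlap, and by 0.48 ± 0.12 in control mice (adjusted p = 0.000217 and 0.0062). Thrb, the main form of liver, averaged 6.16 ± 0.17 in palm oil clamped and 5.81 ± 0.16 in palm oil basal livers, and 6.12 ± 0.47 in control clamped and 5.65 ± 0.16 in control basal livers (SD, n = 9 and 7 per group). The differences were 0.36 ± 0.12 (adjusted p = 0.0748) and 0.47 ± 0.14 (adjusted p = 0.0271), so that only control mice passed the threshold. That call lay near the threshold. It was lost without any one of control basal replicates 1 and 4 and control clamped replicates 2, 3, 4 and 5. The differences were then 0.4 to 0.44, with adjusted p between 0.0549 and 0.0765. Palm oil mice passed without control clamped replicate 7 (adjusted p = 0.0167). That liver enters their comparison only through the spread estimated over all arrays, and the difference stayed at 0.36. In control mice the call was also lost without the basal animals numbered 44 or higher (0.49, adjusted p = 0.166). Without the arrays high in acinar transcripts it was lost as well (0.48, adjusted p = 0.227). Both settings leave out 4 of the 7 control basal livers, and why the call was lost was not tested. Of 9 genes regulated by thyroid hormone 0 rose, 1 fell in palm oil mice and 3 fell in control mice. Gpd2, the mitochondrial glycerophosphate dehydrogenase, differed by -0.53 ± 0.11 in palm oil mice and -0.70 ± 0.12 in control mice. Cyp7a1, whose enzyme limits the rate of bile acid production and which stands on the FXR list as well, differed by -1.26 ± 0.47 (adjusted p = 0.103) and -2.25 ± 0.53 (adjusted p = 0.00449).

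Among the retinoid receptors Rarb, itself a retinoic acid-induced gene, fell, and Rara and Rarg were not called. Rarb averaged 1.72 ± 0.14 in palm oil clamped and 2.27 ± 0.30 in palm oil basal livers, and 1.72 ± 0.21 in control clamped and 2.14 ± 0.34 in control basal livers (SD, n = 9 and 7 per group). It differed by -0.55 ± 0.12 in palm oil mice (adjusted p = 0.00252) and by -0.43 ± 0.14 in control mice (adjusted p = 0.0444). The call in control mice was lost without any one of palm oil basal replicate 2, control basal replicates 2, 4 and 7 and control clamped replicates 1, 2, 3, 6 and 7, with differences of -0.45 to -0.32. In control mice it was also lost without the arrays high in acinar transcripts (-0.41, adjusted p = 0.221) and without the basal animals numbered 44 or higher (-0.34, adjusted p = 0.295). The call in palm oil mice was lost without the arrays high in acinar transcripts (-0.40, adjusted p = 0.207). Both clamped means of Rarb lay below 1.83, the median of the mean values of all genes. Rara differed by -0.20 ± 0.11 and -0.29 ± 0.13, and Rarg by -0.39 ± 0.17 and -0.30 ± 0.19, in palm oil and control mice. Without the basal animals numbered 44 or higher Rarg passed the threshold in palm oil mice (-0.56, adjusted p = 0.0427). Of 8 measured retinoic acid-regulated genes, Rarb included, 0 rose in either treatment, 3 fell in palm oil mice and 2 in control mice. Dhrs3, the retinaldehyde reductase that lowers retinoic acid production, differed by -0.72 ± 0.12 and -0.74 ± 0.13.

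Retinoid X receptors are the shared partners of CAR, PXR, FXR, LXR, the PPARs and the thyroid, retinoid and vitamin D receptors. Rxra, the main hepatic form, averaged 7.84 ± 0.14 in palm oil clamped, 8.03 ± 0.09 in palm oil basal, 7.85 ± 0.19 in control clamped and 7.88 ± 0.16 in control basal livers (SD, n = 9, 9, 7 and 7), with differences of -0.19 ± 0.08 (adjusted p = 0.167) and -0.04 ± 0.09 (adjusted p = 0.879). Rxrb differed by 0.04 ± 0.14 and 0.29 ± 0.16 and was not called. Rxrg averaged 1.4 ± 0.29 in palm oil clamped, 2.11 ± 0.38 in palm oil basal, 1.3 ± 0.14 in control clamped and 1.71 ± 0.22 in control basal livers. It fell by 0.71 ± 0.13 in palm oil mice (adjusted p = 0.000286) and differed by -0.40 ± 0.15 in control mice (adjusted p = 0.0887). All group means of Rxrg except that of palm oil basal livers lay below 1.83, the median of the mean values of all genes, where signal is compressed. Without the arrays high in acinar transcripts the call in palm oil mice was lost (-0.48, adjusted p = 0.159). Vdr, the vitamin D receptor, differed by 0.23 ± 0.14 and 0.13 ± 0.15 and was not called, and of 5 vitamin D-regulated genes only Cdkn1a, the cell cycle inhibitor p21 that many stimuli induce, was called (3.18 ± 0.27 and 3.19 ± 0.30).

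Pparg, the fatty acid receptor of fat cell formation, which in mouse liver rises with steatosis, averaged 4.27 ± 0.51 in palm oil clamped, 5.23 ± 0.34 in palm oil basal, 4.4 ± 0.27 in control clamped and 4.9 ± 0.30 in control basal livers (SD, n = 9, 9, 7 and 7). It fell by 0.96 ± 0.17 in palm oil mice (1.94-fold, adjusted p = 0.000162), with 7 of 9 clamped livers below all basal livers. In control mice it differed by -0.50 ± 0.19 (adjusted p = 0.102). The same difference passed the threshold without palm oil clamped replicate 2, the lowest palm oil clamped liver (adjusted p = 0.0338). That liver enters the control comparison only through the spread estimated over all arrays. The response of Pparg did not pass the test of a difference between treatments (-0.45, 95% interval -0.97 to 0.06, unadjusted p = 0.0827). Ppard differed by -0.18 ± 0.15 in palm oil mice and 0.18 ± 0.17 in control mice.

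Every remaining receptor missed the threshold in both treatments. Over the 24 receptors called in neither, differences ran between -0.39 and 0.47 in palm oil mice and between -0.63 and 0.29 in control mice. The extremes were Rarg and Esr1 in palm oil mice and Esrrg, an estrogen-related orphan receptor, and Rxrb in control mice. On the array's log2 scale the 95% interval lay within 2-fold for all 24 in palm oil mice and for 23 in control mice, the exception being Esrrg (-0.63 ± 0.23, interval -1.10 to -0.16, adjusted p = 0.0879). Esrrg passed without control clamped replicate 4 (-0.74, adjusted p = 0.0404) and without the basal animals numbered 44 or higher (-1.05, adjusted p = 0.0306). Its relatives Esrra, which works with PGC-1 coactivators on mitochondrial genes, and Esrrb differed by 0.15 and -0.03 in palm oil mice and by -0.21 and -0.001 in control mice. The clock-linked receptors Nr1d2 (a repressor) and Rora (an activator) differed by 0.19 and 0.12 in palm oil mice and by 0.11 and 0.23 in control mice. Nr5a2 (LRH-1, a receptor that acts on bile acid synthesis genes) differed by 0.04 and 0.06, with standard errors of 0.07 and 0.08. The orphan receptors Nr2c1 and Nr2c2 differed by 0.11 and -0.06 in palm oil mice and 0.06 and 0.03 in control mice, and Nr6a1 (germ cell nuclear factor) by -0.25 and -0.21. Without the arrays high in acinar transcripts Nr6a1 passed the threshold in palm oil mice (-0.61, adjusted p = 0.0168).

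Receptors outside the list and the coregulators are given for comparison. Of 12 other measured nuclear receptors 1 rose and 2 fell in palm oil mice and 1 rose and 1 fell in control mice. Hnf4a, the master factor of hepatocytes, rose (0.44 ± 0.09 and 0.38 ± 0.10), and Ppara, the fatty acid receptor of fasting, fell (-0.54 ± 0.10 and -0.44 ± 0.11). Nr1d1, named after its value was seen, fell in palm oil mice (-1.15 ± 0.24) and was not called in control mice. The test of a difference in response between the treatments called 0 of these 12 receptors. Of 12 coactivators 3 rose and 1 fell in palm oil mice, and 2 rose and 2 fell in control mice. Ppargc1b (PGC-1β) fell in both (-0.77 ± 0.14 and -0.91 ± 0.16), and the acetyltransferase Crebbp rose in both (0.25 ± 0.07 and 0.33 ± 0.08). Kat2b, another acetyltransferase, differed by -0.36 ± 0.12 (adjusted p = 0.0751) and -0.59 ± 0.14 (adjusted p = 0.00485). Of 8 measured corepressor genes 1 rose and 1 fell in palm oil mice, and 2 rose and 0 fell in control mice. Lcor, a ligand-dependent corepressor, rose in both (0.36 ± 0.10 and 0.36 ± 0.11). Tbl1xr1, a subunit of the NCoR complex, rose in control mice (0.56 ± 0.16) and was not called in palm oil mice. The test of a difference in response called 0 of these 8 genes.

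**Figure D3:**
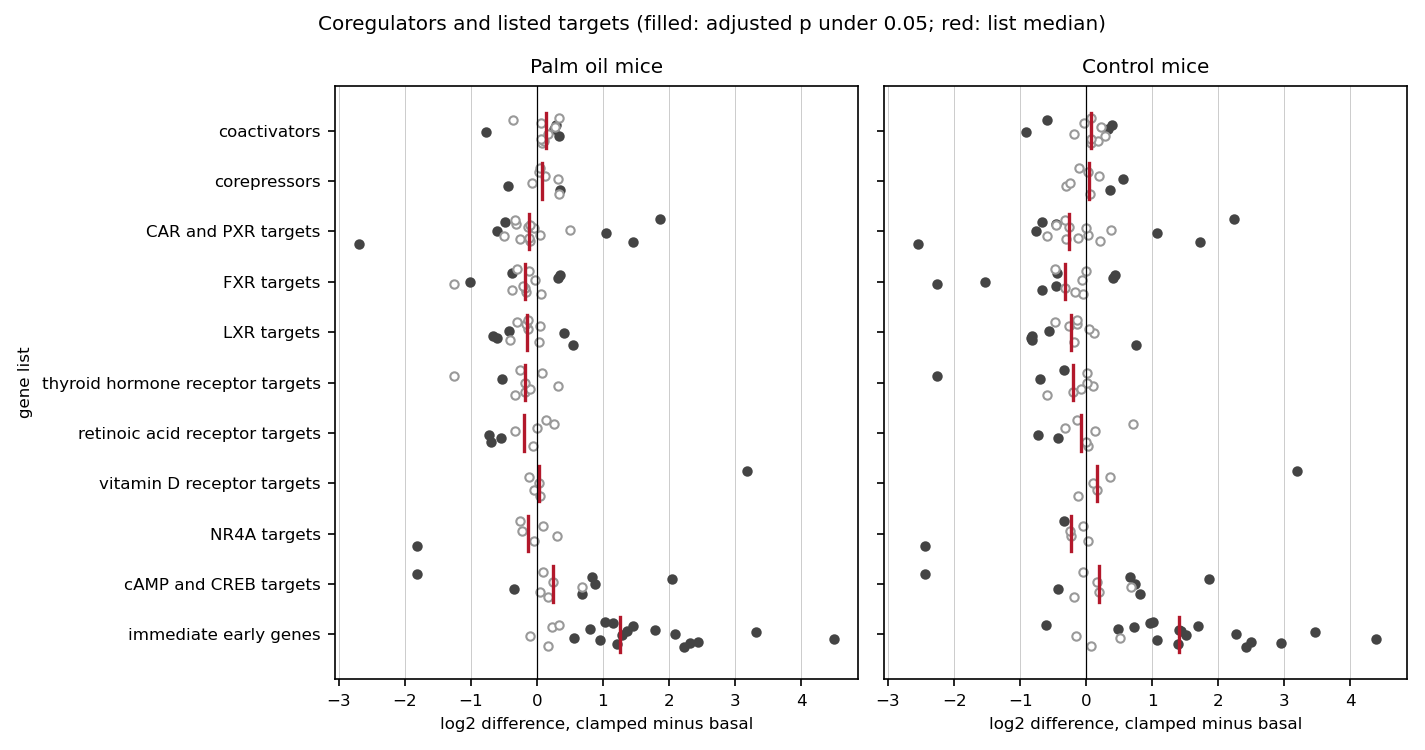
Difference between clamped and basal liver (log2 units, x axis) for each gene of the coregulator and target lists (y axis), in palm oil mice (left) and control mice (right), with filled points for an adjusted p under 0.05 and a red line at each list's median. Immediate early genes have medians of 1.25 and 1.4, and the other lists have medians between -0.32 and 0.25.

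Palm oil against water was the dietary question of the series, and here 0 of the 33 receptors passed the threshold in clamped or in basal mice. Over all genes 0% were called by limma in either state, and 3.52% (clamped) and 5.11% (basal) had an unadjusted p under 0.05. Among the receptors 0 in clamped and 1 in basal mice had such a p. That one was Rxrg, with values of 1.55, 2.15 and 2.61 (lowest, median and highest) in palm oil basal livers, against 1.5, 1.62 and 2.11 in control basal livers (0.41 ± 0.14, unadjusted p = 0.00599, adjusted p = 0.96). The exact rank sum test also called 0 receptors, with 0 in clamped and 2 in basal mice at an unadjusted p under 0.05. Differences ran from -0.28 (Rxrb) to 0.36 (Nr1i3) in clamped mice and from -0.16 (Nr2f1) to 0.41 (Rxrg) in basal mice.

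On the array's log2 scale the 95% intervals of all 33 receptors were within 2-fold in both states, and those of 29 in clamped and 28 in basal mice were within 1.5-fold. For the 7 dimmest receptors (Vdr, Rxrg, Nr2f1, Esrrb, Pgr, Nr4a2 and Nr4a3) signal is compressed, so that these intervals do not bound the change of the transcript. Nr1i3 differed by 0.36 ± 0.21 in clamped mice (interval -0.06 to 0.79) and by 0.04 ± 0.21 in basal mice (interval -0.39 to 0.46). For Nr4a1 the intervals were -0.38 to 0.82 and -0.57 to 0.63, and for Nr1h4 they were -0.07 to 0.36 and -0.19 to 0.24, in clamped and basal mice. Pparg differed by -0.13 ± 0.18 in clamped mice and by 0.33 ± 0.18 in basal mice (unadjusted p = 0.0756), and Ppard by -0.05 ± 0.16 and 0.31 ± 0.16 (unadjusted p = 0.0566).

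The test of whether the response to the clamp differed between palm oil and control mice called 0 receptors and 0% of all genes, and 0 receptors had an unadjusted p under 0.05, against 3.49% of genes. The smallest p was that of Nr2f1 (0.38 ± 0.19, unadjusted p = 0.0535), followed by that of Pparg. For Nr4a1 the difference between responses was 0.19 ± 0.42, for Nr1i3 0.33 ± 0.30 and for Nr1h4 0.12 ± 0.15. On the same scale, intervals stayed within 2-fold for 32 of 33 receptors and within 1.5-fold for 20, and the exception was Nr4a1, whose interval ran from -0.66 to 1.04. A call in one treatment alone, as for Pparg, Rxrg and Thrb, is therefore not shown to be a difference between treatments.

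**Figure D4:**
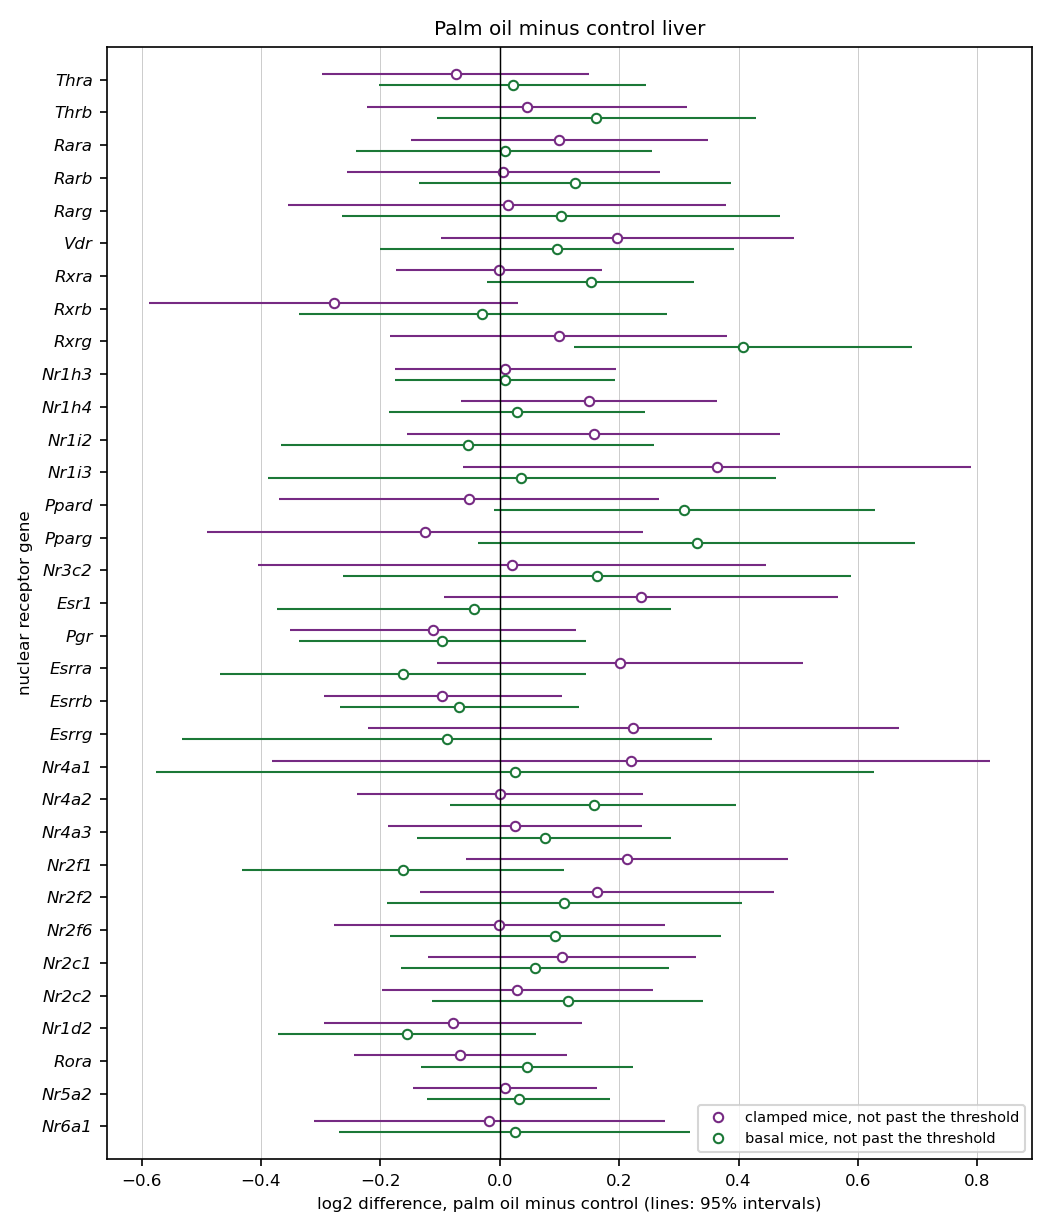
Difference between palm oil and control liver (log2 units, x axis) for the 33 receptors (y axis, same order), in clamped mice (purple, 9 palm oil and 7 control) and basal mice (green, 9 and 7), with 95% intervals as lines. No receptor passed the threshold, and the point farthest to the right is Rxrg in basal mice at 0.41.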

How the data were processed

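Liver RNA was amplified, biotin-labelled and hybridised to Affymetrix Mouse Gene 2.1 ST arrays, per the labels' protocols. The submitters' processing notes name RMA and the program Affymetrix Expression Console (version 1.3.0.187) as the authors' source of the deposited log2 values, which were used unchanged. RMA corrects background, equalises arrays and summarises probes, which compresses low values. The scanner's intensities were not used here.

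Of 41345 probe sets, 23521 had 1 gene symbol in the platform annotation, 1814 had several and 16010 were not listed. Per symbol the probe set with the highest mean was taken, which left 22180 genes. Groups came from the sample titles. limma 3.58.1 (R 4.3.3) was fitted to all 32 arrays with 4 group means and 28 residual degrees of freedom, and each of 5 contrasts had its p-values adjusted (Benjamini-Hochberg) across the 22180 genes. Every adjusted p is from limma unless a rank sum test is named. Intervals are at 95%, and arrays are separate mice. For each gene all arrays share an estimate of the spread. Leaving out an array outside a comparison therefore changes the p-value of that comparison and not its difference. The number of arrays limits the precision. Functions were tested on simulated data. The members and gene lists were chosen with earlier results of these data known. All members are accounted for. Members called in any contrast and the markers Nr1i3, Nr1h4 and Nr4a1 were named with group values, and of each other list the 3 called genes with the smallest p in control mice. Promoter windows (RefSeq, GRCm38.p6) were searched for 3 motifs, and the 50 bases after each start were left out. Alternatives covered the genes and probe sets used, normalization, the prior, array weights, replicate number and animal number within each state. They also covered acinar marker level, thresholds, a rank sum test and each array left out.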

Additional observations from a re-analysis of the deposited data

Results flagged for a closer look

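In each group of 7 or 9 livers the highest and lowest value of each receptor was set against its nearest neighbour by Dixon's test, and 10 of 132 such groups held a value far from the others. Chance flags about 1 in 20 groups. Of the 10, 2 were palm oil clamped, 6 palm oil basal and 2 control clamped. Pparg was 3.08 in palm oil clamped replicate 2, with the next liver at 4.1. Vdr reached 2.55 in palm oil clamped replicate 6 (next 1.84) and 2.23 in palm oil basal replicate 7 (next 1.45). Rara was 4.5 in palm oil basal replicate 7 (next 4.01). Rxra was 7.82 in palm oil basal replicate 5 (next 8.02) and 8.23 in control clamped replicate 6 (next 7.9). Esrra was 2.44 in palm oil basal replicate 6 (next 3.06), and Esrrb was 1.78 in palm oil basal replicate 5 (next 1.49). Nr5a2 was 7.75 in palm oil basal replicate 2 (next 7.47), and Nr4a2 was 0.94 in control clamped replicate 1 (next 1.43). Of these values that of Pparg belongs to a called member, and without that liver the difference between clamped and basal palm oil mice was -0.81 (adjusted p = 0.000142).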

How the results depend on the processing

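The number of receptors called stayed within 1.5 times of its value under every alternative run, between 7 and 10 in palm oil mice (8 to 9 when each array was left out) and between 5 and 10 in control mice (5 to 8), and it stayed 0 for both palm oil comparisons and the interaction. No called receptor changed direction. Nr1i3, Nr2f2, Nr3c2 and Thra in both treatments, and Nr4a1 and Pparg in palm oil mice, were called under all 49 alternatives. Animal number and the split at animal 44 were centred within each state. These terms therefore cannot adjust clamped minus basal differences for animal number, and a threshold of 0.1 cannot lose a call. Nr4a1 in control mice lost its call with the exact rank sum test alone. In control mice Rarb lost its call in 18 of 49 alternatives and Thrb in 11, also with only the groups compared (adjusted p = 0.107 for Rarb and 0.136 for Thrb), whereas Nr1h4 gained one in 7, Rxrg in 3 and Esrrg in 4. In palm oil mice Esr1 gained a call in 15 of 49 and Thrb in 6, Rarg (-0.56, adjusted p = 0.0427) and Nr1h4 (-0.31, adjusted p = 0.0446) without the basal animals numbered 44 or higher, Nr6a1 (-0.61, adjusted p = 0.0168) without the arrays high in acinar transcripts, and Rxra with the exact rank sum test (adjusted p = 0.0446). Single arrays also brought Rora (0.29, without control clamped replicate 7, adjusted p = 0.0495) and Nr2f1 (-0.44, without control basal replicate 6, adjusted p = 0.0492) past the threshold in control mice. The cause was not tested. With the replicate number as a block 9 receptors were called in palm oil mice, 7 in control mice and 0 in the other comparisons. Deviations of same-numbered livers from their group means correlated at r of -0.36 to 0.36 over 44 pairs, 12 of them over 0.1. Replicate numbers rise with animal number in every group, and what same-numbered livers share beyond that was not tested. Repeating quantile normalization turned the split of all called genes in control mice to 880 higher and 1223 lower, against 1033 higher and 907 lower as reported, and 1 median for all arrays gave 1167 and 719. The median of all genes moved by less than 0.1. The 7 dimmest receptors (Vdr, Rxrg, Nr2f1, Esrrb, Pgr, Nr4a2 and Nr4a3) lie where signal is compressed.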
